A study of Homo sapiens with 6 samples.

Results

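The genes described here belong to the HLA class I presentation route. They are the heavy chain genes HLA-B, HLA-C, HLA-E and HLA-F, the light chain gene B2M, the peptide transporter genes TAP1 and TAP2, the tapasin gene TAPBP and the trimming aminopeptidase gene ERAP1. They are 9 of the 57905 gene identifiers in the count files. They were chosen by name and not by a cut-off on a measured value, although earlier results of these data were known. All 9 were among the 14398 genes with enough counts to be tested. Other class I heavy chain genes are not analysed here. The RNA came from H929, an established human multiple myeloma cell line, and the 6 samples were biological replicates according to the design text. In each reaction 5 μg of total RNA was kept for 1 h at 37 °C, either with 2 μg of recombinant IRE1 spanning residues 467 to 977 of the human protein (IRE1-treated group, 3 samples) or without it (control group, 3 samples), and the enzyme was inactivated for 5 min at 95 °C. The line, the RNA amount, the incubation and the inactivation were shared by both groups. Poly(A)-containing RNA was then purified and sequenced. The question of the comparison was which mRNAs lose reads when purified RNA is exposed to IRE1, and B2M was one of the study's negative controls, while ERAP1 was one of its candidate substrates.

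HLA class I molecules show peptides from inside the cell to T cells and natural killer cells. A heavy chain pairs with beta-2-microglobulin, the B2M product, in the endoplasmic reticulum. The TAP1 and TAP2 proteins form the pump that carries peptides from the cytosol into that compartment, tapasin (TAPBP) holds the empty heavy chain at the pump, and ERAP1 shortens the peptides to the length the groove accepts. IRE1 is a sensor of misfolded proteins in the same compartment. Its RNase domain cuts XBP1 mRNA and other mRNAs, most often at a CUGCAG-like element in the loop of a hairpin. A cut mRNA keeps its poly(A) tail only on the 3′ piece, so that poly(A) purification leaves the 5′ piece behind.

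The sequences below are examples from the reference transcripts. In each, the letters of that element lie in a computed hairpin loop or inside a qRT-PCR amplicon of the study. They are not the full set, as 19 elements of the wide form defined next were placed in a loop over the 9 genes. The search used the strict form CUGCAG and a wide form, which is C, then A, C or U, then G and C, then A or C, then A or G, so that every strict element is also a wide one. Both were searched on the transcript strand. Each line gives 30 bases 5′ to 3′ of the canonical GENCODE transcript on GRCh37, with the 6 letters of the element in capitals.
TAP2: caggagggcaagCUGCAGaagcuugcccag
HLA-F: gcuacucucaggCUGCAGccuacucagugg
HLA-B: cagcaugaggggCUGCCGaagccccucacc
HLA-C: cagcacgaggggCUGCAAgagccccucacc
B2M: agacuugucuuuCAGCAAggacuggucuuu
ERAP1: cauagucaccacCUGCAGauaucuagggcc
BLOC1S1: uacaaagggcagCUGCAGucugccccuucc

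The TAP2 element is in the coding part of the last exon, exon 12 of 12, at chr6:32796701-32796706 on the minus strand, and 37.8% of the transcript lies upstream of it. Its flanking letters pair with each other around the element. The HLA-F element is at the end of exon 6 of 7 (chr6:29693815-29693820, plus strand), and its 30 bases run across the junction into exon 7. HLA-B (chr6:31323116-31323121, minus strand) and HLA-C (chr6:31238009-31238014, minus strand) carry a wide element at the same place, bases 889 to 894 of their transcripts and exon 4 of 8. The letters on either side of it are nearly alike in these genes and were paired in both. The B2M element shown is coding and in exon 2 of 4 (chr15:45007781-45007786, plus strand). ERAP1 has its element in exon 2 of 19 (chr5:96139327-96139332, minus strand), inside the study's ERAP1 amplicon, which spans bases 230 to 444 of 4841. That ERAP1 element was not placed in a loop. BLOC1S1, an established IRE1 substrate, is given for reference, with its element in exon 4 of 4 at chr12:56113373-56113378 on the plus strand.

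All 9 genes hold the wide form and 7 hold the strict form, HLA-B and B2M being the exceptions. Among the 12182 expressed protein-coding genes, 99.7% of transcripts held a wide form and 85.3% a strict one. TAP2 had 13 strict elements in 5643 bases, TAP1 had 5 in 2685 bases and ERAP1 had 5 in 4841 bases. HLA-E and HLA-F had 2 each, and HLA-C and TAPBP had 1 each. Strict forms placed in a loop were found in HLA-F and TAP2, 1 each, against 36.1% of all expressed coding transcripts with at least 1. Each of the 9 genes had a wide form in a loop, as had 84.3% of all transcripts. In B2M, 2 of its 3 wide elements were placed in a loop, both inside the study's B2M amplicon (bases 120 to 332 of 943). These placements depended on how the fold was made. When the window was folded freely, 1 strict element in ERAP1, at bases 461 to 466, was in a loop and that in HLA-F was not. The strict element in TAP2 was placed in a loop either way. In B2M the free fold placed neither of the elements at bases 258 to 263 and 327 to 332 in a loop. It placed the B2M element at bases 131 to 136 in a loop instead.

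**Figure D1:**
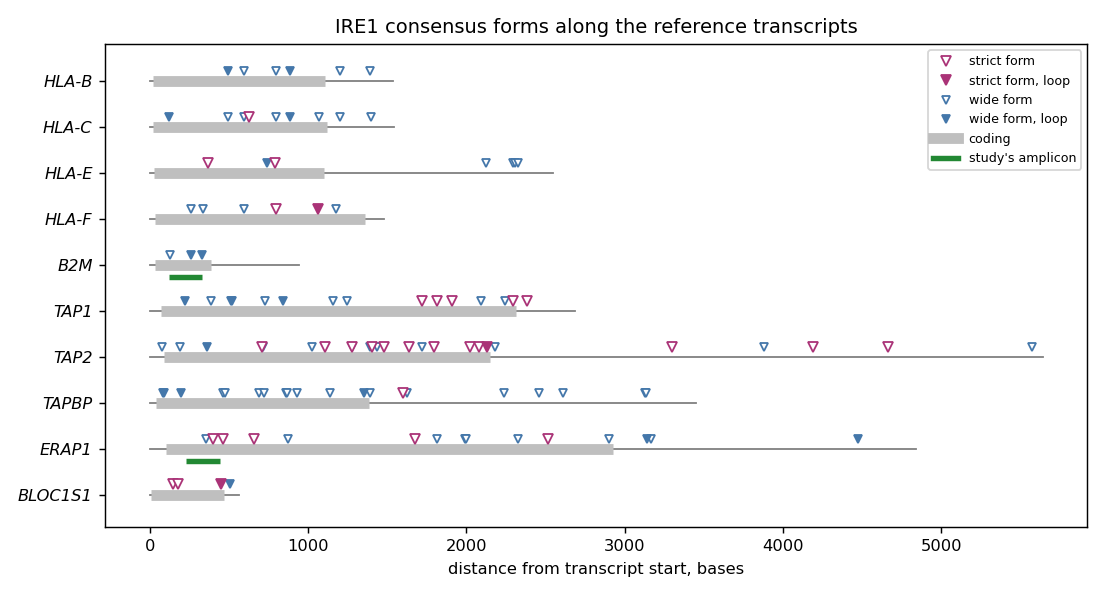
Consensus elements along the canonical transcript of each gene, with distance from the transcript start in bases on the horizontal axis and 1 line per gene. Triangles are elements (large, strict form; small, wide form; filled, placed in a computed loop), grey bars the coding part and green bars the study's amplicons; TAP2 carries 13 strict elements and B2M none.

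The gene counts amounted to 19615715 to 25678499 per library, and the 9 genes together took 0.355 to 0.375% of them. The 7 plasma cell marker genes summed to 10800 to 11100 CPM (counts scaled to library size) in controls and 10500 to 10700 CPM in IRE1-treated samples. Of 14 marker genes of T cells, B cells, monocytes, red cells, epithelium and fibroblasts, 11 were too low to be tested, and their summed level was 94.4 to 98.3 CPM in controls and 102 to 111 in IRE1-treated samples. CD3E and KRT18 made up most of this sum, and KRT18 was higher in IRE1-treated samples (log2 fold change 0.25, edgeR adjusted p = 0.00787), while CD3D had 0 counts in 5 libraries and 1 in the other. The part of these markers in the results was not tested. IRE1-treated replicate 1 stood farthest from the controls, with a chi-square per gene of 22.5 to 29.2 against them, compared with 7.96 to 10.1 for IRE1-treated replicate 3. Its TMM scaling factor was 0.947, against 1.02 to 1.03 in the controls. The study states that each sample had its own sequencing lane, so lane and sample cannot be told apart. BLOC1S1 checked the group labels. Its normalized counts were 606, 582 and 649 in controls and 275, 230 and 211 in IRE1-treated samples, a log2 fold change of -1.37 (SE 0.0950, edgeR adjusted p = 1.25e-06).

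In control RNA, B2M was the most abundant of the 9 transcripts per length and TAP2 the least. Levels between genes were compared as CPM per kilobase of annotated exon, rescaled to the same sum in every library. On this scale B2M stood at 1180 ± 26.2 (SD, n = 3), HLA-C at 955 ± 5.58 and HLA-E at 934 ± 12.8. HLA-B stood at 202 ± 2.01, and HLA-E was 4.62 times as abundant on this scale. All annotated exons span 4623 bases in HLA-B and 2922 in HLA-E. Their canonical transcripts have 1536 and 2548 bases, so the distance between these genes depends on the length used. The loading machinery followed, with TAPBP at 155 ± 7.26, TAP1 at 66.2 ± 0.417 and ERAP1 at 48.3 ± 1.76. HLA-F stood at 16.7 ± 1.28 and TAP2 at 15.9 ± 0.419. HLA-F and TAP2 were the only neighbours in this order whose control ranges overlapped. With the length of the longest transcript these were at 33.9 ± 2.58 and 19.4 ± 0.493, so both the HLA-F level and its distance from TAP2 depend on the length used. HLA-C and HLA-E were also close, at 951 to 961 and 926 to 948, and their order did not change with the length of the longest transcript in place of all exons. Among all tested genes, B2M was at percentile 99.2 and TAP2 at percentile 58.1. As these are bulk libraries, fewer cells that express a gene and less RNA per cell cannot be told apart.

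**Figure D2:**
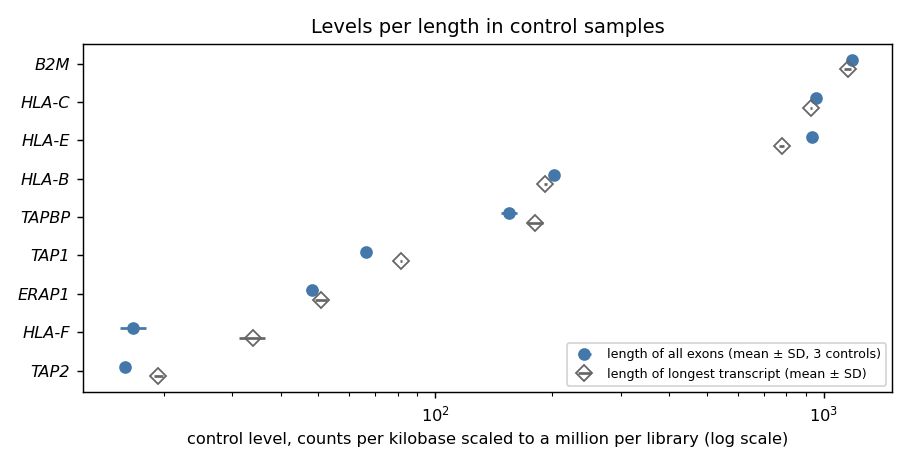
Level of each gene in the controls, in CPM per kilobase on a log axis, as mean ± SD of 3 samples. Filled circles use the length of all annotated exons and open diamonds that of the longest transcript; B2M, HLA-C and HLA-E lie far to the right of the other genes on both.

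The balance within the class I complex varied little between the libraries. Among the heavy chains described here, HLA-C took 45.0 to 46.5% of the summed level per length, HLA-E took 43.5 to 44.7% and HLA-B took 9.16 to 9.83%. HLA-F, a non-classical heavy chain, took 0.734 to 0.877%, with all annotated exons as its length. B2M amounted to 0.546 to 0.569 of the summed heavy chain level in controls and 0.565 to 0.598 in IRE1-treated samples, so the groups overlapped. All of these shares and ratios used the length of all annotated exons, which is 3121 bases in B2M and 4623 in HLA-B. The canonical transcripts have 943 and 1536 bases. The shares compare libraries and do not give the true proportion of light to heavy chain mRNA. The level of TAP1 was 4.07 to 4.25 times that of TAP2 in controls and 4.19 to 4.62 times in IRE1-treated samples.

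After incubation with IRE1, B2M and HLA-C were slightly higher relative to other mRNAs, ERAP1 was lower, and the other 6 genes did not pass the test. B2M, which encodes the light chain of every class I molecule, had normalized counts of 24504, 24540 and 24006 in controls and 28078, 27573 and 27243 in IRE1-treated samples. Every IRE1-treated sample was above every control. The change was 13.5%, with a log2 fold change of 0.18 (SE 0.0424, edgeR adjusted p = 0.00645, n = 3 per group). It stayed above 0 in all 15 alternative fits and passed the test in 13 of them. With library size alone as the scaling it was 0.11 (edgeR adjusted p = 0.0501).

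HLA-C, which presents peptides to T cells and is a main ligand of natural killer cell receptors, had normalized counts of 15674, 15712 and 16124 in controls and 17533, 17846 and 16876 in IRE1-treated samples. The groups did not overlap, and the change was 10.0% (log2 fold change 0.14, SE 0.0442, edgeR adjusted p = 0.0352). This call was the least stable of the 3. It passed in 5 of 15 alternative fits, and was lost with any control left out or without IRE1-treated replicate 2, where the adjusted p from edgeR lay between 0.0783 and 0.162. HLA-E, the ligand of the NKG2A receptor, had 17792, 18210 and 18117 in controls and 19131, 20123 and 19183 in IRE1-treated samples. HLA-B had 6214, 6130 and 6197 against 6377, 6979 and 6760. In HLA-E and HLA-B too, all IRE1-treated samples lay above all controls. Their log2 fold changes of 0.11 (SE 0.0439) and 0.12 (SE 0.0472) did not pass, with edgeR adjusted p of 0.0811 and 0.0841. Without IRE1-treated replicate 1, both passed (log2 fold changes of 0.126 for HLA-E and 0.155 for HLA-B). With library size scaling they were 0.035 and 0.043, and with the length and GC trend removed 0.032 and 0.10, and none of these passed.

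HLA-F was measured with far fewer counts. Its normalized counts were 513, 441 and 476 in controls and 570, 506 and 478 in IRE1-treated samples. The groups overlapped, and the highest value was that of IRE1-treated replicate 1. The log2 fold change of 0.12 (SE 0.0846, edgeR adjusted p = 0.363) was less than the spread between replicates could resolve.

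**Figure D3:**
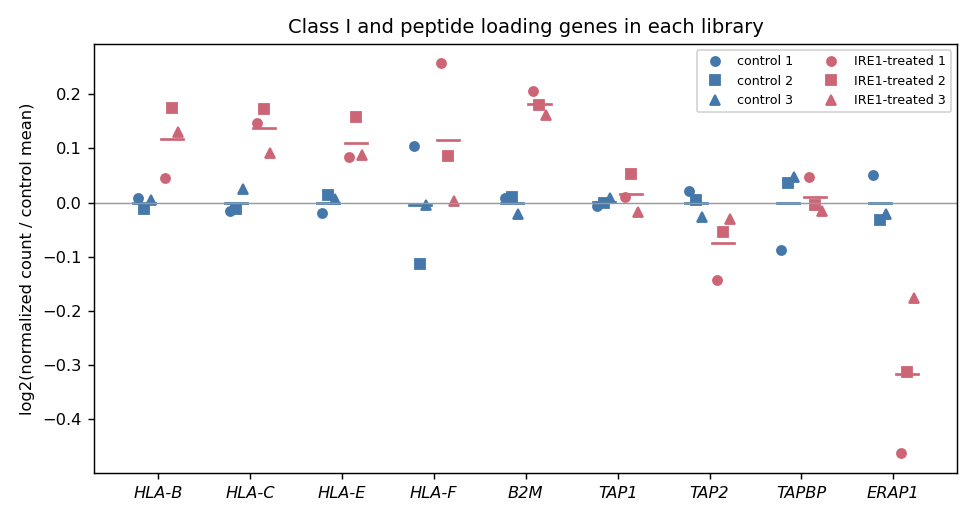
Normalized counts of each gene in each library as log2 of the ratio to the gene's control mean (blue, control; red, IRE1-treated; the marker shape gives the replicate number and bars are group means of the plotted values). In B2M, HLA-B, HLA-C and HLA-E the red points lie above the blue ones, and in ERAP1 they lie from -0.463 to -0.176, below all controls.

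ERAP1, the aminopeptidase that trims peptides after transport, fell by 19.4%. Its normalized counts were 2631, 2485 and 2502 in controls and 1843, 2045 and 2249 in IRE1-treated samples. All IRE1-treated samples were below all controls, replicate 1 the farthest and replicate 3 the nearest. The log2 fold change was -0.31 (SE 0.0631, edgeR adjusted p = 0.00280). The study picked ERAP1 as a candidate from exon counts of this same sequencing, so the lower gene count is not independent of that choice. By qRT-PCR the study also reported a lower 5′ region after cleavage for all its selected candidates, ERAP1 among them. It did not list ERAP1 among the mRNAs with a consensus stem-loop around the cleavage site. ERAP1 passed the test in the same direction in all 15 alternative fits, with values of -0.38 to -0.18. The smallest values came where a trend of the counts with transcript length and GC content was removed (-0.18, edgeR adjusted p = 0.0230). CAST lies on the opposite strand, shares 3.8% of the annotated ERAP1 exon bases and had 1372 to 1984 counts per library. The strand setting of the authors' counting is not given in the sources used here, so these genes cannot be told apart there.

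The transporter and tapasin genes did not pass the test in any fit. TAP1 had normalized counts of 2062, 2072 and 2083 in controls and 2086, 2149 and 2048 in IRE1-treated samples, and the groups overlapped. The log2 difference was 0.02 (SE 0.0477, edgeR adjusted p = 0.861), and -0.06 when scaled by library size alone. PSMB8-AS1 lies antisense over 14.2% of the annotated TAP1 exon bases and had 340 to 442 counts per library, and the 2 cannot be told apart there without the strand setting. TAPBP had 6406, 6980 and 7037 against 7036, 6789 and 6738, with a log2 difference of 0.01 (SE 0.0491, edgeR adjusted p = 0.910) and of -0.07 by library size alone. Thus neither gene has a sign that holds between scalings. TAP2 had 1106, 1094 and 1070 in controls and 988, 1050 and 1068 in IRE1-treated samples. Its IRE1-treated samples were all below its controls, with 1070 and 1068 as the nearest pair. The log2 difference of -0.07 (SE 0.0565, edgeR adjusted p = 0.384) did not pass, and was 0.06 with the length and GC trend removed. TAP2 is the gene with the paired stem around its strict element shown above. Of the TAP2 transcript, 37.8% lies upstream of that element and 62.2% downstream, and a gene count adds reads from both sides. Whether that element was cut was not tested.

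Of the 9 genes, 1 was called lower, against 12.4% of all tested genes, and 2 were called higher, against 10.3%. In 4 genes all IRE1-treated samples were above all controls, which held for 19.1% of all tested genes, and in 2 they were below, which held for 20% of them. Counts of 1 and 2 among 9 genes are too small to be set apart from these shares. The median log2 fold change of the 9 genes was 0.11 and that of all tested genes 0.00. Over all tested genes, 45.5% of the calls were higher, 20.8% with library size scaling and 58.4% with the length and GC trend removed, so directions are relative to the scaling chosen.

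Transcript length moved with the change across all coding genes. These were divided into 5 groups of nearly equal size by the length of the longest transcript. The median log2 fold change was 0.17 in the shortest group (up to 2253 bases) and -0.21 in the longest (from 6310 bases). HLA-C and HLA-F, at 1880 and 1544 bases, belong to the shortest group and lay below its median, with 41.6 and 35.1% of its genes lower. B2M, HLA-E and TAP1 belong to the second group, whose median was 0.06, and 80.4% of its genes were lower than B2M. HLA-B and TAPBP belong to the third, and 81.1% of its genes were lower than HLA-B. TAP2 and ERAP1 belong to the fourth, whose median was -0.10. In that group 14.9% of genes were lower than ERAP1 and 56.3% lower than TAP2. With the trend removed, B2M kept a log2 fold change of 0.12 (edgeR adjusted p = 0.0339) and HLA-C dropped to 0.03 (edgeR adjusted p = 0.691). The groups and the trend both used the longest transcript, which has 2329 bases in B2M and 3547 in HLA-B. Their canonical transcripts have 943 and 1536 bases, lengths within the range of the shortest group. Where B2M and HLA-B stand against genes of like length therefore depends on the length used.

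**Figure D4:**
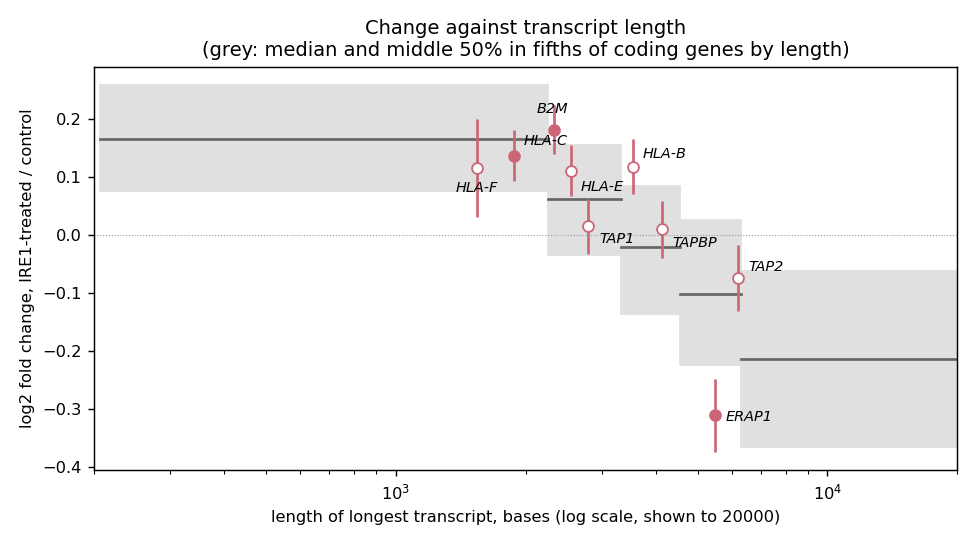
Log2 fold change (IRE1-treated over control, ± SE) of each gene against the length of its longest transcript in bases on a log axis, with filled points for adjusted p under 0.05. Grey boxes and lines give the middle 50% and the median of all tested coding genes in 5 groups of equal size by length. The group medians run from 0.17 to -0.21. ERAP1 lies below the box of its group and B2M and HLA-B above those of theirs. The canonical transcripts of B2M and HLA-B, at 943 and 1536 bases, are shorter than the lengths plotted.

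Measured against B2M within each library, which needs no scaling between libraries, every other gene of the list had a lower ratio in IRE1-treated samples, as it must where B2M has the highest fold change of the 9. For ERAP1 the log2 ratio to B2M was -3.22, -3.30 and -3.26 in controls and -3.93, -3.75 and -3.60 in IRE1-treated samples, a difference of -0.50, which leaves 70.8% of the control ratio. The ratios of TAP2 (difference -0.26), TAPBP (-0.17) and TAP1 (-0.17) were likewise lower in all IRE1-treated samples than in all controls. For each of these 4 genes the two-sided exact permutation p was 0.1, the smallest that 3 against 3 samples allow, and 0.2 after Benjamini-Hochberg adjustment over the 8 ratios. The heavy chain ratios overlapped between the groups. HLA-C kept the closest ratio to B2M, with a difference of -0.05 (exact permutation p = 0.3, adjusted 0.343). For HLA-B, HLA-E and HLA-F the differences were -0.07, -0.07 and -0.06, with exact permutation p of 0.2, 0.2 and 0.6.

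Among neighbouring steps of the pathway, the immunoproteasome list had the most calls in 1 direction for its size. Of its 5 genes, all tested, 4 rose and none fell, with a median log2 fold change of 0.27. Of all tested genes 10.3% were called higher, and of coding genes in the 2 shortest length groups, to which these 5 belong, 31.6 and 12.3%. PSME1 and PSME2, the subunits of the activator that opens the proteasome, rose by 0.34 (SE 0.0522, edgeR adjusted p = 0.000481) and 0.27 (SE 0.0571, edgeR adjusted p = 0.00353). PSMB9 and PSMB8, catalytic subunits whose genes lie beside TAP1 and TAP2, rose by 0.33 (SE 0.0674) and 0.24 (SE 0.0578), with edgeR adjusted p of 0.00280 and 0.00880. With library size scaling or with the length and GC trend removed, 3 of the 5 passed and PSMB8 was lost. The median was then 0.19 and 0.14, respectively, and 2 of the 5 passed with the trend removed and a replicate block.

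The list of other loading and trimming factors held 9 genes, of which 4 fell and 1 rose, with a median log2 fold change of -0.01. Of all tested genes 12.4% were called lower and 10.3% higher. The 4 that fell have longest transcripts of 5208 to 12134 bases, and of coding genes in the 2 longest length groups 20.6 and 39.2% were called lower. CALR, the chaperone calreticulin that binds heavy chains in the loading complex, rose by 0.23 (SE 0.0467, edgeR adjusted p = 0.00305). CANX, the membrane chaperone calnexin, was at -0.26 (SE 0.0507, edgeR adjusted p = 0.00221). UGGT1, which marks poorly folded glycoproteins for another round of folding, was at -0.29 (SE 0.0584, edgeR adjusted p = 0.00281). LNPEP, a trimming peptidase of endosomes, was at -0.21 (edgeR adjusted p = 0.0243). ERAP2, the partner of ERAP1, named after its value was seen, was at -0.22 (SE 0.0673, edgeR adjusted p = 0.0259). With the length and GC trend removed none of these 5 passed, and 1 gene of the list, THOP1, did. Among 13 transcriptional regulators, 1 fell and 1 rose, with a median of 0.00. RFXANK, a subunit of the RFX factor, rose by 0.21 (SE 0.0583, edgeR adjusted p = 0.0168), while NFYA, a subunit of the NF-Y factor, was at -0.20 (SE 0.0690, edgeR adjusted p = 0.0495). With the trend removed neither passed and IRF1 did (0.14, edgeR adjusted p = 0.0385), as did IRF1 and NFKB1 with separate curves. Of 8 class II genes only 4 were high enough to test and none passed. The most abundant, HLA-DMA, had 65.5 to 80.2 normalized counts in controls and 94.6 to 107 in IRE1-treated samples (log2 fold change 0.41, SE 0.147, edgeR adjusted p = 0.0565). GAPDH, the study's other negative control, was at 0.15 (edgeR adjusted p = 0.0239), and at 0.02 with the trend removed.

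**Figure D5:**
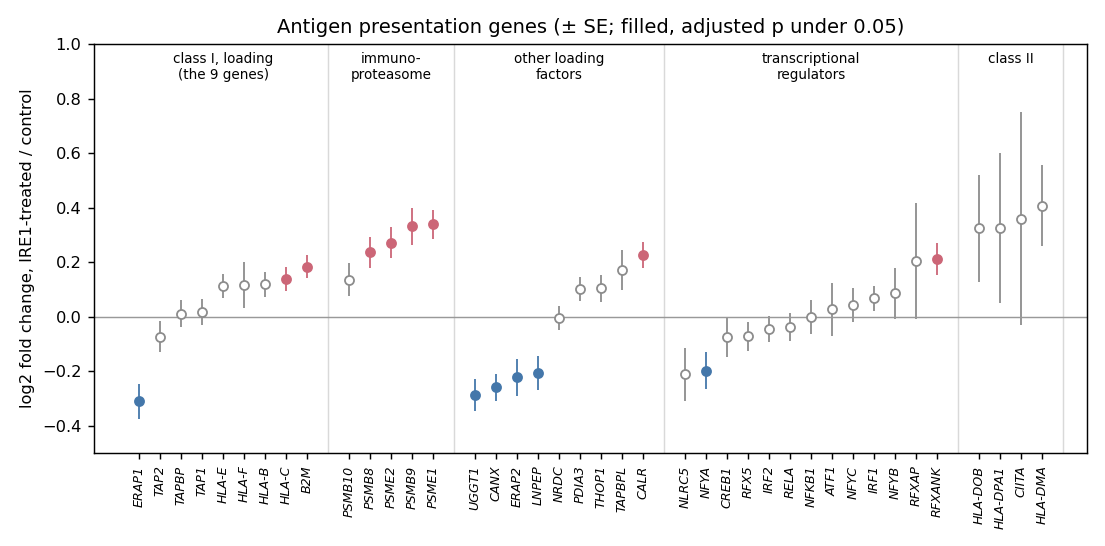
Log2 fold change of IRE1-treated over control (± SE from edgeR) of the 9 genes and of the 4 related lists, each ordered by value. Filled points passed at an adjusted p under 0.05 (red, higher; blue, lower) and open points did not; 4 of 5 immunoproteasome genes are filled red.

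Of the 9 genes, 7 lie together on chromosome 6, from HLA-F to TAPBP (chr6:29690552-33282061, GRCh37), while B2M (chr15:45003556-45011049) and ERAP1 (chr5:96096514-96143803) lie elsewhere. The heavy chain genes are near copies of each other, which bears on their counts. The coding sequences of HLA-B and HLA-C were identical at 91.6% of alignment columns, those of HLA-B and HLA-E at 85.6%, and those of HLA-F with the others at 67.6 to 69.9%. These columns include gaps, and the HLA-F coding sequence has 1329 bases against 1077 to 1101 in the others. HLA-B had 934 identical bases with HLA-F, in 1338 columns, and 934 with HLA-E, in 1091 columns. The lower percentages of HLA-F thus include its extra length. In the reference, no 76-base stretch (the read length) of the HLA-B, HLA-F, B2M or ERAP1 transcript occurred in a transcript of another gene. For HLA-C and HLA-E the share was 1.9 and 2.2%, and for TAP2 35.0%, which includes an annotated readthrough transcript, itself counted at 1 to 6 reads per library. That readthrough gene shares 2023 exon bases with TAP2 on the same strand. Whether reads there were left out as ambiguous is not known without the overlap setting, so the TAP2 level may be too low. The ratio of TAP1 to TAP2 would then be too high. The HLA alleles of H929 were not compared with the reference, so the split of reads between HLA-B and HLA-C is uncertain.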

How the data were processed

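The study sequenced poly(A)-selected, stranded mRNA libraries of 3 IRE1-treated and 3 control H929 RNA samples, paired-end. Before deposit, the authors used cutadapt 1.12 for trimming, aligned the reads to GRCh37 with Ensembl annotation (STAR 2.5.3a) and counted them per gene (HTSeq 0.6.1p1, versions per the submitters' processing notes), and they deposited these counts without normalization. The strand and overlap settings are not given in the sources used here. Lines that name no gene held 21.4 to 23.2% of the counts and were left out. A CPM table of 12558 genes was deposited by the authors as well (edgeR 3.24.3 is named in the notes), used only in an alternative.

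All 57905 identifiers entered 1 table, and names came from GENCODE 44 lifted to GRCh37, which matched 55538. The 6 libraries were fitted together with edgeR 4.0.16 in R 4.3.3 (filter by expression, TMM scaling, quasi-likelihood test without covariates), with Benjamini-Hochberg adjustment over 14398 genes and a threshold of 0.05. The fit was tested on simulated data. Normalized counts are counts at the scale of the mean library. The p-values from edgeR weigh the difference between the groups against the spread between samples within them. The lowest chi-square per gene between libraries was 2.21, so none was a copy of another. Ratios to B2M used a two-sided exact permutation test. Replicate numbers are shared by the groups but do not pair samples (correlations of deviations -0.112 to -0.00505). Elements were folded with ViennaRNA 2.7.2, with 15 bases on either side, the element kept unpaired, and a loop of 6 to 9 bases closed by 3 stacked pairs. A first criterion, free folding with loops of 5 to 11 bases, missed planted loops and the BLOC1S1 element and was replaced after the counts of these genes under it had been seen. It is kept as an alternative. The alternatives were DESeq2 1.42.0, library size scaling, no filter, at least 10 counts in every library, limma 3.58.1 on the authors' CPM plus 1 (log2), a replicate block, loess trends (span 0.5) with length and GC content, and each library left out. The separate curves and the fold criterion used were chosen after seeing the data. Members and lists were chosen with earlier results of these data known. All 9 genes are named, and of each list up to 4 passing genes with the lowest adjusted p, otherwise its most abundant gene. Counts ran from 458 to 29037 per gene and library. Counting error alone is small at the high end and largest for HLA-F, at 458 to 608 counts. Exon counts and qRT-PCR values were not used here. Of the list of regulators, 1 gene is not reported here.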

Additional observations from a re-analysis of the deposited data

How the results depend on the processing

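ERAP1 was called lower in all 15 alternative fits, with -0.38 to -0.18. The number of the 9 genes called higher was 2, and became 0 with library size scaling, 1 without a filter, 1 with the length and GC trend removed by either method, and 3 with DESeq2. Leaving out single libraries gave 1 to 4, with 4 without IRE1-treated replicate 1, 3 without IRE1-treated replicate 3, and 1 without any control or IRE1-treated replicate 2. Over all genes, 3270 calls became 1970 with the trend removed, 1978 with the separate curves, and 1630 to 4312 when a library was left out (control replicate 2 and IRE1-treated replicate 3). The causes of these shifts were not tested.

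Library size scaling, which moved the median of all genes from 0.00 to -0.07, gave HLA-C 0.061, B2M 0.11, TAP1 -0.061 and TAPBP -0.066. Without a filter HLA-C was 0.13 (DESeq2 0.14) and TAPBP -0.0017, and with DESeq2 HLA-E passed at 0.11. With the trend removed HLA-C was 0.027, HLA-F -0.039, TAP1 -0.045 and TAP2 0.056. With the separate curves they were 0.018, -0.047, -0.056 and 0.069. Leaving out single libraries gave 0.088 to 0.155 for HLA-B, 0.12 to 0.17 for HLA-C, 0.087 to 0.127 for HLA-E, 0.046 to 0.18 for HLA-F, 0.17 to 0.20 for B2M, -0.0039 to 0.037 for TAP1, -0.092 to -0.040 for TAP2, -0.032 to 0.034 for TAPBP and -0.38 to -0.24 for ERAP1. No ratio to B2M changed sign in its 7 alternatives.

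With the replicate number as a block (replicate block), which does not pair samples here, 2613 genes were called, 1 of the 9 was higher (B2M) and HLA-C was 0.14 (adjusted p = 0.103). Together with the trend it left 1697 calls, 0 of the 9 higher, B2M at 0.12 (adjusted p = 0.0774), HLA-C at 0.027, HLA-F at -0.034, TAP1 at -0.045 and TAP2 at 0.055.

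With the longest transcript as length, control levels were 1150 for B2M, 926 for HLA-C, 779 for HLA-E, 192 for HLA-B, 181 for TAPBP, 81.6 for TAP1, 50.8 for ERAP1, 33.9 for HLA-F and 19.4 for TAP2, in the same order. CUGCAG alone gave 29 elements in place of 106, and 2 in loops, in 2 genes, in place of 19 in 9. A free fold gave 18 in 7 genes. Depth limited HLA-F most, at 458 to 608 counts.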
